A study of Mus musculus with 13 samples.

Results

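RAD21 peaks of mouse limbs that carry the HoxD deletion allele del(8-13)rXII were compared with those of wild-type limbs, across the genome. RAD21 is the kleisin subunit of cohesin. The members are the 33707 peaks of the wild-type list and the 15927 peaks of the mutant list, from 2 of the 13 samples of the series. A wild-type peak that shares at least 1 bp with a mutant peak is called kept, one that shares none is called missing, and a mutant peak that overlaps no wild-type peak is called extra. The study chromatin-immunoprecipitated CTCF, cohesin and a histone mark from E12.5 limbs (the embryonic day) to describe the boundary at the HoxD cluster. Both RAD21 libraries came from whole forelimbs and hindlimbs of B6CBAF1 embryos, wild type on one side and genotype delHoxd(8-13)rXII on the other. Per the labels' protocols, wild-type and homozygous mutant embryos came from crosses of heterozygotes. The lists used beside them are CTCF of wild-type whole limbs (B6CBAF1), CTCF of wild-type distal and proximal forelimbs (CD1), CTCF of del(8-13)rXII whole forelimbs (B6CBAF1), made by the transposase-based ChIPmentation method, and RAD21 and SMC1 of wild-type distal forelimbs (CD1), all at E12.5. The number of embryos behind the RAD21 libraries and the breakpoints of the allele are not given in the sources used here, and the labels do not say what rXII stands for. Each side is 1 library, so the comparison has no replicate check and no p-value, and allele and library cannot be told apart.

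Cohesin is a ring of SMC1, SMC3 and RAD21 with a STAG subunit. It extrudes chromatin loops and halts where CTCF, a zinc-finger protein, sits on its oriented DNA motif, so most cohesin peaks in mammalian cells coincide with CTCF. Cohesin without CTCF is known from active promoters and enhancers, where its loader NIPBL acts. In the limb bud the loops and domains it forms on either side of HoxD bring the digit and forearm enhancers to the Hoxd genes.

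The strength of a peak is the −log10 q that the authors' peak caller gave it, and it was compared within a list only. The wild-type list had a median −log10 q of 13.6 and the mutant list 14.2, and the weakest peak of each was at 1.30 and 1.31. Read depth is not given in these files, so a missing peak is a site not called in the mutant library, not a site shown to be free of RAD21. The label of the mutant library states that it was sequenced in 2 runs. Fixation lasted 10 or 25 minutes for RAD21, without saying which library had which, and its part in the results was not tested.

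The sequences under the sites that carry the results are shown here first, in RefSeq's GRCm38 sequence. A 19-base CTCF matrix was built from the 2000 strongest wild-type CTCF summits, and its most frequent bases read NGGCCACCAGGGGGCGCNN, where N stands for no preferred base. Capitals below mark the best match to it within 50 bp of the RAD21 summit, on the strand of the match, at HoxD and at a pair of the strongest missing sites elsewhere. At the Hoxd12 and Hoxd10 sites and at the kept site beside Evx2 the best match stayed under the score that 5% of windows 2 kb away pass, and the other matches shown passed it. The best match at the strong missing site upstream of Ypel2, not shown, also stayed under that score.
Evx2 side, missing (chr2:74661982-74662030, minus strand): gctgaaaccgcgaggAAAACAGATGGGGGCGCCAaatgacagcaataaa
Evx2 side, kept (chr2:74663728-74663776, minus strand): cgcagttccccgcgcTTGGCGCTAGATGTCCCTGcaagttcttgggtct
Hoxd12 side, missing (chr2:74673101-74673149, minus strand): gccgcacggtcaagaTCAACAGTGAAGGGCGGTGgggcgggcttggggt
Hoxd10 promoter, missing (chr2:74691745-74691793, plus strand): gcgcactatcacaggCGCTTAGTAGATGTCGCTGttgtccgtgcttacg
Hoxd8 side, missing (chr2:74702377-74702425, plus strand): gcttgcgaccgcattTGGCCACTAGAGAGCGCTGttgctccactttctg
Hoxd3, kept (chr2:74715903-74715951, plus strand): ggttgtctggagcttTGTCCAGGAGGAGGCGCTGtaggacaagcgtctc
Sertad2, missing (chr11:20446057-20446105, plus strand): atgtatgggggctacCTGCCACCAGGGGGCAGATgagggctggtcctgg
Pla2g10, missing (chr16:13733954-13734002, minus strand): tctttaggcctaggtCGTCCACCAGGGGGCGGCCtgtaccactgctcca

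A second set is shown because many extra peaks lay on short tandem repeats. Capitals mark bases that equal the base 1 repeat unit before or after, in the 121 bp around the summit. The first 5 windows are extra peaks. Then follows, near Pag1, a missing wild-type peak at a −log10 q of 20.1 on the repeat unit most frequent among missing peaks. The window nearest Samd3 has no capitals because no unit of 1 to 6 bases reached the 70% match used as the limit.
Apol8, extra (chr15:77751814-77751934, plus strand): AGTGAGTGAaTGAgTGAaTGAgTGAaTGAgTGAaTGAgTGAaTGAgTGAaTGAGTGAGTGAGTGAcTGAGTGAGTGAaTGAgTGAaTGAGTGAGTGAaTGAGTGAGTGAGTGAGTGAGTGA
Wnt5a, extra (chr14:28654397-28654517, plus strand): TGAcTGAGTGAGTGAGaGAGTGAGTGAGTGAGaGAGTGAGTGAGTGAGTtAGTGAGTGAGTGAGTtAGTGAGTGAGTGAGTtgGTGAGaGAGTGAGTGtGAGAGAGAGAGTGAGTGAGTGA
Lsamp, extra (chr16:39507608-39507728, plus strand): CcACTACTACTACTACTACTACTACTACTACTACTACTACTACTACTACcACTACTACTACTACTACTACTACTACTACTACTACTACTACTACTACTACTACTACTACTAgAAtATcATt
Samd3, extra (chr10:26205246-26205366, plus strand): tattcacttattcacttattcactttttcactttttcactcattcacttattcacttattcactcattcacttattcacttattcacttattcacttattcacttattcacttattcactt
Fanci promoter, extra (chr7:79391919-79392039, plus strand): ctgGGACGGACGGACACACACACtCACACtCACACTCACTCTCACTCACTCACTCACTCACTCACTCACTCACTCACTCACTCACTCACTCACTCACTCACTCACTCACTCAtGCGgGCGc
Pag1, missing (chr3:9803149-9803269, plus strand): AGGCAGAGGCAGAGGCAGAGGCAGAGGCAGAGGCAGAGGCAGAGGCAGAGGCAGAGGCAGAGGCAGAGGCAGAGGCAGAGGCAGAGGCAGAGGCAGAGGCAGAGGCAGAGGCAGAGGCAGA

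The third set shows tRNA genes, the sites without CTCF that were kept most often. Capitals mark the B box, the internal promoter element in the T arm that the polymerase III factor TFIIIC binds, found by a search for the letters GGTTCGA followed by any pair of bases and CC on the strand of the gene.
n-TVaac8, valine tRNA, at Mynn (chr3:30601270-30601342, plus strand): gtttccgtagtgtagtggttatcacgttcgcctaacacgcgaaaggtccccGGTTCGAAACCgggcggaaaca
n-TSgct7, serine tRNA, at Knl1 (chr2:119046750-119046831, minus strand): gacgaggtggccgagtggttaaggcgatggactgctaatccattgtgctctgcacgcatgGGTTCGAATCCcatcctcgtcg
n-TRacg6, arginine tRNA, at Prmt5 (chr14:54517696-54517768, plus strand): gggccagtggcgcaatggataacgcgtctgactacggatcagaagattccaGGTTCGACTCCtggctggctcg

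Of the 33707 wild-type RAD21 peaks 15252 were kept, which is 45.2% (95% Wilson interval 44.7 to 45.8%, which covers counting error only, as do all intervals here). The other 18455 were missing. In the other direction 618 of the 15927 mutant peaks were extra, or 3.88% (3.59 to 4.19%). The mutant list was thus mostly a subset of the wild-type one. Missing peaks were weak: the median wild-type −log10 q was 9.75 for missing and 50.9 for kept peaks with CTCF, and 3.69 for missing and 14.7 for kept peaks without CTCF. Among the 15252 kept peaks the order of strength was similar in both lists, with a Spearman rho of 0.88 (0.88 for the 14515 with CTCF and 0.55 for the 737 without), given as a description of peaks that share their libraries.

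The kept share climbed with strength, decile by decile. In the weakest decile of the wild-type list, with a −log10 q from 1.30 to 2.74, 1.04% of 3371 peaks were kept. In the sixth decile, from 13.6 to 21.7, 43.9% were kept, and in the eighth, from 34.8 to 54.9, 96.9%. In the ninth decile 3 of 3371 peaks were missing, and in the strongest 1 of 3370, a peak at HoxD. The wild-type distal forelimb RAD21 list, a second list shorter than the whole-limb one, fell off in the same range: 0.920% of the weakest decile, 49.6% of the sixth and 94.8% of the eighth had a peak there.

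**Figure D1:**
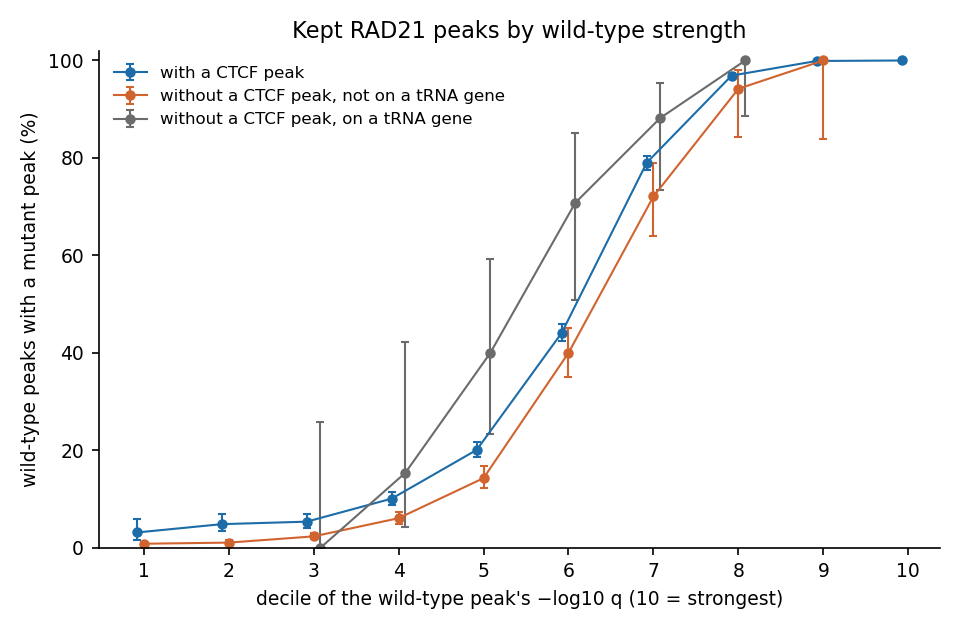
Share of wild-type RAD21 peaks that had a del(8-13)rXII peak (vertical axis, %) by decile of wild-type −log10 q (horizontal axis), for peaks with a CTCF peak, without one and off tRNA genes, and without one and on a tRNA gene. Points are shares, bars 95% Wilson intervals, and points resting on fewer than 10 peaks are left out; all 3 curves climb from near 0 to near 100%, and in deciles 4 to 7 the tRNA genes lie above the other peaks without CTCF.

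Sites were then sorted by kind. A promoter peak has its summit within 1 kb of the start site (TSS) of a protein-coding gene; other peaks are exonic, intronic or intergenic; and a peak has CTCF where it overlaps a peak of the wild-type whole-limb CTCF list. For each kind the kept number was set beside the number given by strength, that is, the number kept if each peak had the kept share of its bin among 20 equally filled bins of −log10 q. Of the 22393 wild-type peaks with CTCF 14515 were kept, 64.8% (64.2 to 65.4%), where strength gave 14410. Of the 11314 peaks without CTCF 737 were kept, 6.51% (6.07 to 6.98%), where strength gave 842. When the wild-type list was shortened to the strongest 15927 peaks, the length of the mutant list, 87.5% of peaks with CTCF and 67.0% of the 521 left without CTCF were kept. Sites with and without CTCF also differed in strength, with medians of 29.4 and 3.88. The kept numbers lay slightly above those given by strength with CTCF and below without. Each bin pooled both kinds of peak, so these numbers cannot separate CTCF from strength. Within weak deciles peaks with CTCF were kept more often: 3.15% against 0.843% in the first, 5.37% against 2.34% in the third and 10.1% against 6.16% in the fourth. The intervals overlapped in the sixth decile (44.1% and 41.9%) and the eighth (96.9% and 96.3%). Strength was not matched further within a decile.

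Among sites with CTCF, promoter peaks were kept less often than intergenic ones, and were weaker. Of 2011 promoter peaks with CTCF 963 were kept, 47.9% (45.7 to 50.1%), below the 68.5% (67.6 to 69.3%) of the 11073 intergenic peaks with CTCF. Strength gave 48.6% and 68.3%, and the medians were 16.5 and 34.3. In the sixth decile, where strengths are alike, 42.1% of 299 promoter and 42.7% of 1421 intergenic peaks with CTCF were kept. Other deciles varied, with 9.66% of 207 and 9.35% of 834 in the fourth and 15.1% of 305 and 21.2% of 1076 in the fifth. In the eighth the shares were 93.3% of 195 promoter and 96.8% of 1740 intergenic peaks. Without CTCF, 98 of 1472 promoter peaks were kept, 6.66% (5.49 to 8.05%), and 420 of 6255 intergenic peaks, 6.71% (6.12 to 7.36%), with 7.07% and 7.52% given by strength. Intronic peaks kept 64.6% of 8426 with CTCF and 5.95% of 3342 without, and exonic peaks 59.5% of 883 and 8.16% of 245. Among intronic peaks 199 were kept without CTCF, where strength gave 245, and 5447 with CTCF, where it gave 5346.

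**Figure D2:**
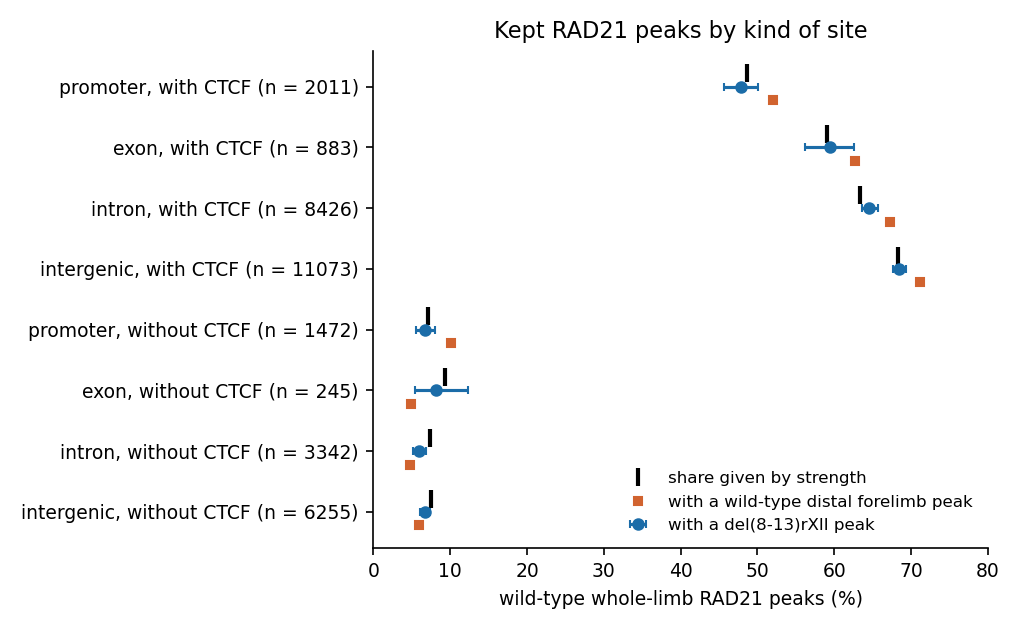
Share of wild-type whole-limb RAD21 peaks of each kind (rows) with a peak in the mutant list (circles with 95% Wilson intervals), the share given by strength (ticks) and the share with a peak in the wild-type distal forelimb list (squares), in %. Circles lie between 47.9 and 68.5% with CTCF and between 5.95 and 8.16% without, and ticks between 48.6 and 68.3% and between 7.07 and 9.30%.

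The second wild-type list puts these numbers in context, with the reserve that it differs in tissue part and in strain. Distal forelimb RAD21 covered 47.0% of the whole-limb wild-type peaks, against the 45.2% covered by the mutant list. By kind it covered 52.0% of promoter peaks with CTCF and 71.2% of intergenic ones with CTCF. Without CTCF it covered 10.1% of promoter and 5.93% of intergenic peaks. SMC1, another cohesin subunit, covered 15.1% of the promoter peaks without CTCF. Of all 1472 promoter peaks without CTCF, 97 had a distal RAD21 but no mutant peak, and 47 had a mutant but no distal one. Over all wild-type peaks these numbers were 2606 and 2007. For intronic peaks without CTCF the order was the other way, with 89 and 127. Of all 18455 missing peaks 5980 had a peak in the distal RAD21 or the SMC1 list. SMC1 alone covered 55.7% of all wild-type peaks, which is not the share for both lists together. Distal RAD21 covered 2606 of the missing peaks and 13245 of the 15252 kept ones.

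The CTCF list of the same allele separates sites whose CTCF was called in the mutant from sites whose CTCF was not. Of the 22393 peaks with wild-type CTCF 20113 also had a mutant CTCF peak. Of these 69.2% (68.6 to 69.9%) kept RAD21, where strength gave 68.5%. The other 2280 kept RAD21 in 25.7% (24.0 to 27.6%), where strength gave 27.7%. Thus 6185 of the 7878 missing peaks with CTCF had CTCF called in the mutant. That CTCF list comes from forelimbs alone and from another assay, and the part of these differences was not tested.

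The strongest missing peaks were few, and most had CTCF called in the mutant. Of the 9106 wild-type peaks with a −log10 q of at least 40, 51 were missing, 0.560%, and 4 of these 51 were at HoxD. Of the 51, 46 had a mutant CTCF peak, and 49 had a peak in the distal RAD21 or SMC1 list. Such peaks were common at strong sites in general, so they do not set the missing ones apart. Of all 9106 peaks 117 lacked distal RAD21, and 46 of the 51 missing ones had it. Among sites about as strong as the Hoxd12 (41.7) and Hoxd10 (49.6) sites described below, 94.5% and 96.1% had mutant CTCF. Of the 5 missing peaks without mutant CTCF, 4 were the HoxD peaks. All of these but the one on the Evx2 side lie between Hoxd13 and Hoxd8, which the genotype label reads as deleted. The fifth was intergenic, 178 kb from the start of Fam169b, and was named after its values were seen; its wild-type RAD21 stood at 43.6, its wild-type CTCF at 6.23 and its SMC1 at 3.27.

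Outside HoxD, the 10 strongest missing peaks had a wild-type −log10 q from 51.4 to 61.3. At the top was an intergenic site 166 kb from AI429214, at 61.3, with CTCF at 79.6 in wild type and 16.9 in the mutant. Next came a site 2054 bp upstream of Ypel2 at 55.3 and one 97.2 kb upstream of Sertad2 at 55.2. A site 55.3 kb from Cggbp1, which encodes a CGG-repeat binding protein, stood at 54.1. All 4 had peaks in the distal RAD21 list (13.9, 17.6, 24.2 and 13.5) and in SMC1 (23.3, 16.3, 51.5 and 4.84). Others lay near Pla2g10, a secreted phospholipase (51.8), 360 kb from Phf3 (51.7) and 9699 bp upstream of Cux2, a homeobox gene (51.4). A further site (51.7) lay in an intron of Vti1a. Its nearest start site, 204 kb away, was that of Tcf7l2, a Wnt pathway transcription factor. The Vti1a site was the one of the 10 with neither a distal RAD21 nor an SMC1 peak. Their place between the 78.5th and the 82.3rd percentile of the wild-type list is lower than that of the Evx2 site described below.

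Among these 10 were a pair of promoters: Bmp1, the procollagen C-proteinase that trims fibrillar collagens, at 52.3 and 568 bp upstream of its start, and Pdrg1 at 51.5 and 33 bp upstream. Igsf11, an adhesion molecule (50.0), Nectin2, a junctional adhesion molecule (49.5), and Mrps14, a mitochondrial ribosomal protein (41.7), followed among missing promoter peaks with CTCF. All 5 promoters had a CTCF peak in both lists, from 24.1 to 136 in wild type and from 8.86 to 16.7 in the mutant, and all 5 had distal RAD21 and SMC1. Missing promoter peaks without CTCF were weaker. Fat1, an atypical cadherin that restrains tissue growth, stood at 34.1, Ruvbl2, an ATPase of chromatin remodelling complexes, came next, then Rnase4 at 26.1, Tnrc6c, of the miRNA silencing complex, at 22.5 and Psmb3, a proteasome subunit, at 21.7. The Psmb3 site alone among these 5 had a distal RAD21 peak, at 9.50. The Rnase4 and Psmb3 peaks lay on tRNA genes, n-TPtgg5 and n-TNgtt8. Among the strongest missing intergenic peaks without CTCF, those nearest Mex3d, Tm2d3, Edem1 and Sash1 ranged from 31.5 to 39.9.

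Many kept sites without CTCF lay on tRNA genes. Of 403 RefSeq tRNA genes, which polymerase III transcribes from promoters inside the gene, 184 had a wild-type RAD21 peak, 45.7% (40.9 to 50.5%), and 121 a mutant one, 30.0% (25.8 to 34.7%). Both lists covered 120 of them, and 105 were also in distal RAD21. SMC1 covered 2, and the wild-type whole-limb CTCF list 12. Thus RAD21 was called at tRNA genes in all 3 RAD21 lists, whereas SMC1 in distal forelimb was called at almost none of them. The part of depth, of fixation and of the antibodies was not tested. Fixation lasted 25 minutes for SMC1 and is not given library by library for RAD21. tRNA genes were examined after the kept peaks had been seen.

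**Figure D3:**
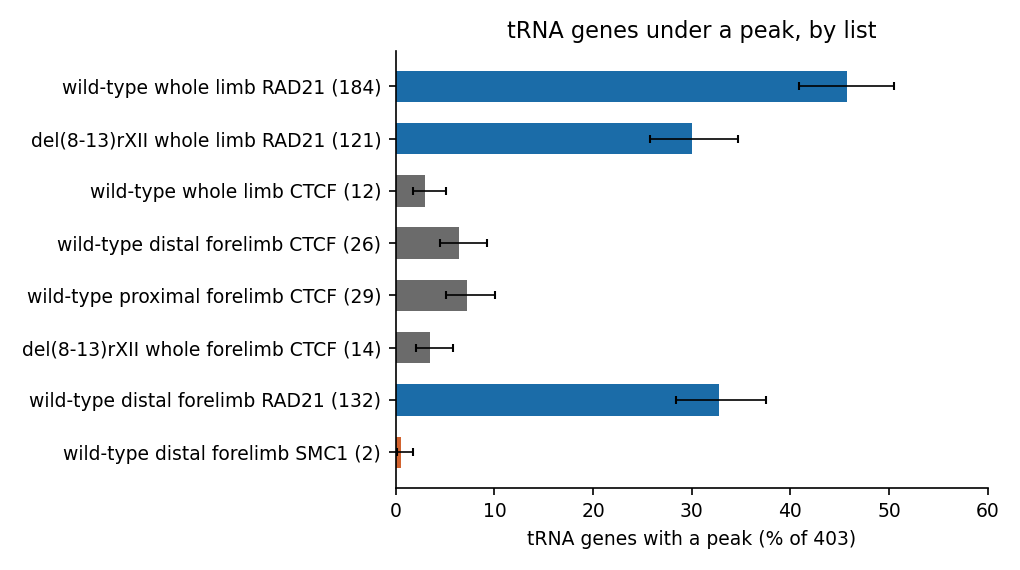
Share of 403 tRNA genes that a peak overlaps (horizontal axis, %) in each of 8 peak lists (rows; the number of genes in brackets), with 95% Wilson intervals; blue is RAD21, orange SMC1 and grey CTCF. The 3 RAD21 lists lie between 30.0 and 45.7%, SMC1 at 0.496% and the CTCF lists between 2.98 and 7.20%.

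At the level of peaks, 143 wild-type peaks without CTCF overlapped a tRNA gene and 92 of them were kept, 64.3% (56.2 to 71.7%), beside 6.51% of all peaks without CTCF. Their strengths, with a median of 19.8, gave 75.4. In the fifth decile 10 of 25 were kept, where 127 of 888 other peaks without CTCF were, and in the sixth 17 of 24 against 146 of 365. These counts are small and their difference was not tested. Of the 51 missing ones 18 had a distal RAD21 peak, as had 82 of the 92 kept ones. The letters GTTCGA of the B box, on either strand within 60 bp of the summit, were in 7.87% of the 737 kept peaks without CTCF, in 1.15% of the 10577 missing ones and in 1.04% of windows 2 kb away from wild-type summits.

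Of the 5 strongest kept promoter peaks without CTCF, 3 lay on tRNA genes. Mynn, a zinc-finger protein, led at 62.7 in wild type and 24.7 in the mutant, and the peak lay on the valine tRNA gene n-TVaac8. Knl1, the kinetochore scaffold, stood at 58.9 and 27.6 on the serine tRNA gene n-TSgct7. Prmt5, an arginine methyltransferase, stood at 58.3 and 21.8 on the arginine tRNA gene n-TRacg6. Klhl3, an adaptor of a ubiquitin ligase, at 58.6 and 13.8, and Plk2, a polo-like kinase, at 53.7 and 20.0, held no tRNA gene. In all, 21 of the 98 kept promoter peaks without CTCF overlapped a tRNA gene, and without tRNA genes 5.32% of promoter peaks without CTCF were kept. Among tRNA genes, the leucine gene n-TLcag4 (100 in wild type, 42.2 in the mutant, 59.5 in distal forelimb) and n-TLtag1 (91.2, 23.2 and 48.6) had the strongest peaks. The n-TLcag4 gene also had a wild-type CTCF peak, at 64.0, and n-TLtag1 had none. Every tRNA family had some: 14 of 25 leucine genes and 13 of 16 proline genes in wild type, and 11 and 8 in the mutant, whereas of 57 cysteine genes 4 and 3 had one.

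Of the 420 kept intergenic peaks without CTCF 67 overlapped a tRNA gene, but none of the 5 strongest did. These lay 181 kb from Lrig3 (95.5 in wild type, and in the mutant at the 65.5th percentile of its list), 485 kb from Plcl1 (90.8 in wild type and 22.5 in the mutant), 31.0 kb from Snx13 (78.0 and 7.78), 34.6 kb from Sulf1, a heparan sulphate sulphatase (76.5 and 8.50), and 7108 bp from Cpox, a haem synthesis enzyme (76.5 and 31.6). All but the Sulf1 site held a match to the CTCF matrix, and all but the Cpox site had a peak in the mutant CTCF list, a reminder that a site without a wild-type CTCF call can have one in another list. Of the 11314 peaks without whole-limb CTCF, 3320 had a peak in a forelimb CTCF list and 13.8% of these were kept, where strength gave 13.7%. The remaining 7994 had no CTCF in any of the 3 wild-type lists, and 3.48% (3.10 to 3.90%) were kept, where strength gave 4.82%.

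The share with a CTCF motif differed between the classes. A match to the CTCF matrix lay within 50 bp of the summit in 87.9% of kept peaks (87.3 to 88.4%), 42.0% of missing peaks (41.3 to 42.7%) and 10.2% of extra peaks (8.05 to 12.8%), against 4.57% of windows 2 kb from wild-type summits. With CTCF peaks alone the shares were 90.9% of kept and 79.4% of missing peaks. Peaks with CTCF and a motif kept 67.9% where strength gave 68.0%, and those with CTCF and no motif kept 44.8% where strength gave 40.4%.

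**Figure D4:**
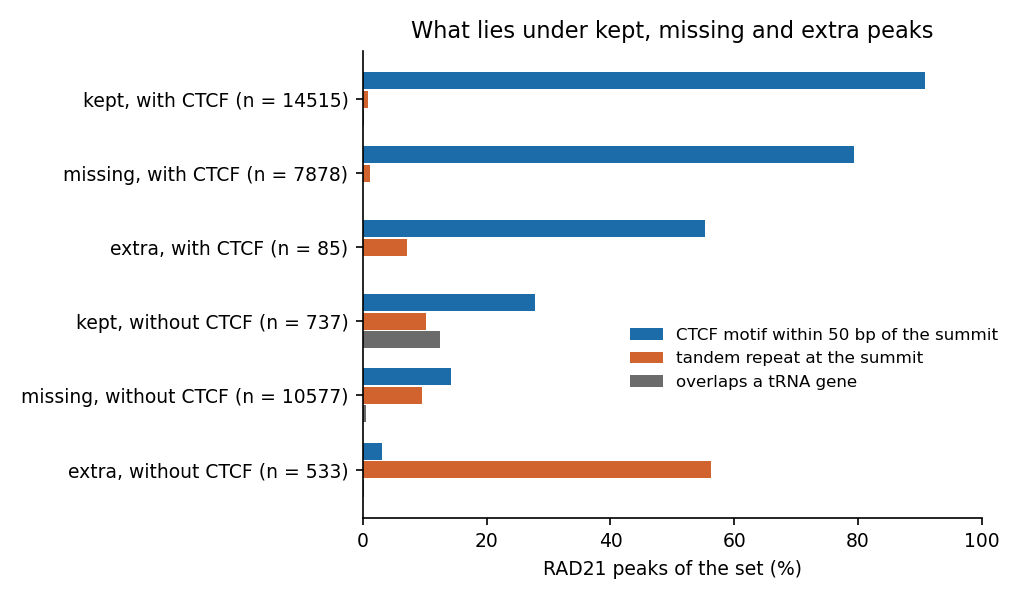
Share of RAD21 peaks (horizontal axis, %) that hold a CTCF motif within 50 bp of the summit, lie on a tandem repeat or overlap a tRNA gene, for kept, missing and extra peaks with and without a wild-type CTCF peak (rows, with the number of peaks). Motifs fill 90.9% of kept peaks with CTCF, and tandem repeats 56.3% of extra peaks without CTCF.

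The extra peaks were neither promoter sites nor CTCF sites for the most part. Of the 618, 533 lacked wild-type CTCF, 86.2%, where 5.08% of the 15309 mutant peaks shared with wild type did. By place 392 were intergenic, 200 intronic, 23 at promoters and 3 exonic. Promoters made up 3.72% of extra and 6.99% of shared peaks. A CTCF peak of the same allele covered 68 of the 618 extra peaks and 92.4% of the shared ones. Distal RAD21 covered 3.56% and 86.7%, and SMC1 7.77% and 88.2%. In all, 491 extra peaks had no CTCF in any of 4 lists and no cohesin in the other lists used.

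Short tandem repeats lay under 306 of the 618, 49.5% (45.6 to 53.4%), beside 1.38% of the shared mutant peaks and 0.923% of windows 2 kb away. Peaks on repeats were not particular to the mutant list. They made up 518 of all 15927 mutant peaks, 3.25%, and 1285 of all 33707 wild-type peaks, 3.81%. Among the 10577 missing peaks without CTCF they were 1006, 9.51%. A window counted as a repeat where at least 70% of its 121 bases equalled the base 1 unit on, for a unit of 1 to 6 bases. This class was defined after the strongest extra peaks had been seen. It was denser among strong extra peaks: 16 of the 20 strongest and 66 of the 100 strongest lay on one. When the distal forelimb RAD21 list was set against the whole-limb wild-type list in the same way, 575 of 16498 peaks were extra, 3.49%, much as in the mutant, but 7 of them, 1.22%, lay on a tandem repeat. A short read on a repeat can often not be placed at 1 position. How the authors treated such reads is not given in the sources used here. The mutant and wild-type whole-limb libraries are of the same labelled strain, and the distal forelimb library is of another. The part of read placement, strain, tissue part or library in these counts was not tested.

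The strongest extra peak lay in an intron of Apol8 at 94.6, in the top 1% of the mutant list at its 99.3rd percentile. The next, at 86.1, lay in an intron of Reln, the gene of the extracellular protein reelin, with Slc26a5 as the nearest start site. One in an intron of Tmem143 stood at 67.2; it had weak distal RAD21 and SMC1 peaks, at 3.74 and 4.73. Near genes with roles in the limb, one lay 143 kb from Wnt5a, a ligand of limb outgrowth, at 64.8, and one 66.5 kb upstream of Bmp4, a growth factor of the limb bud, at 54.1. The remaining ones had as nearest start sites those of Samd3 (56.6), Arpp21 (52.3), Chd6 (49.6, within an intron of Ptprt), Lsamp (43.3) and Id2 (43.3), from 24.4 to 623 kb away. None of these 10 had CTCF in the whole-limb wild-type list or in the mutant list, 1 had it in a forelimb list, and 8 of the 10 were called tandem repeats; the windows at Samd3 and Arpp21 were not. Among extra promoter peaks Fanci, of the DNA crosslink repair pathway, stood at 30.8 on a repeat 329 bp from a start site, and the next were Sv2c (10.7), Arhgap32 (5.96), Plcl2 (5.45) and Sh3kbp1 (5.33).

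The kind of repeat differed between the lists. Units are named by the first of their rotations on either strand in the alphabet. Of the 306 extra peaks on repeats 135 lay on AAG, 40 on ACTC, the unit at Apol8 and Wnt5a, 26 on ATC and 21 on ACT, the unit at Lsamp. These 4 units made up 222 extra peaks, and 12 wild-type, 7 shared mutant and 1 distal RAD21 peak lay on them. In the wild-type list AGAGGC led, with 570 peaks on 20 chromosomes; 9 of these were kept where strength gave 47.0, and the distal RAD21, SMC1 and mutant RAD21 lists had 20, 5 and 8 peaks on this unit. The strongest of the missing ones lay in an intron of Pag1 at 20.1. Each whole-limb RAD21 list thus had peaks on repeat units on which the other had few or none.

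At HoxD on chromosome 2 the wild-type list had 8 peaks between the start of the Evx2 gene and the end of Hoxd1, and 2 of them were kept, where their strengths gave 6.12. That difference includes peaks between Hoxd13 and Hoxd8, which the genotype label reads as deleted, so it cannot be read as lost binding. The mutant list had no extra peak there. The first, in an untranslated part of Evx2 at chr2:74655426-74655665, was weak, with a −log10 q of 9.52, and missing, but kept its CTCF (22.3 in wild type, 7.56 in the mutant). A pair of strong peaks followed in the intergenic DNA between Evx2 and Hoxd13. The one at chr2:74661724-74662200, 6.33 kb before the Hoxd13 start, stood at 89.6 and was missing, and the one at chr2:74663505-74663935, 4.59 kb before it, stood at 67.6 and was kept at 16.1 in the mutant list.

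Inside the cluster 4 peaks in a row were missing. They lay 1891 bp upstream of Hoxd12 (chr2:74672959-74673304, 41.7), at the Hoxd10 promoter 117 bp upstream of its start (chr2:74691608-74691972, 49.6), at the Hoxd9 promoter (chr2:74697408-74697693, 6.25) and 2221 bp upstream of Hoxd8 (chr2:74702203-74702612, 46.3). The Hoxd genes named in this row encode homeodomain transcription factors, and the genotype label reads as a deletion from Hoxd8 to Hoxd13. No read can be placed on DNA that an allele lacks, so a missing peak within the deletion carries no information on binding. The next peak, in an intron of Hoxd3 (chr2:74715712-74716368), was the strongest of the locus at 159, the 99.0th percentile of its list, and was kept at 52.5, the 93.7th percentile of the mutant list.

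The mutant CTCF list had peaks of 12.9 and 13.0 at the 2 kept sites and none at the 4 strong missing ones, whose wild-type CTCF stood at 11.9, 54.1, 12.4 and 60.4 in the order of the locus. Elsewhere in the genome all 2528 wild-type peaks within a factor of 1.2 of the strength of the missing Evx2 site were kept. Of the like peaks for the Hoxd12, Hoxd10 and Hoxd8 sites 96.4%, 98.7% and 97.8% were kept. The Hoxd12, Hoxd10 and Hoxd8 sites lie in the span that the genotype label reads as deleted, so their contrast carries no information on binding. For the weak sites at the Hoxd9 promoter and in Evx2 the shares were 6.16% and 13.7%, so most peaks of their strength were missing elsewhere too. The 2 kept sites took ordinary places, with 23.8% and 26.7% of kept peaks of like wild-type strength below them in the mutant list. On either side, within 1 Mb, 9 of 11 and 9 of 13 wild-type peaks were kept, where strength gave 6.62 and 8.10, and no extra peak was called.

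The missing Evx2 and Hoxd10 sites were also weak in distal forelimb cohesin of wild type. The Evx2 site was at 5.80 in distal RAD21 and 4.95 in SMC1, where 0.238% and 2.02% of the sites of like whole-limb strength that had a peak in that list lay lower, and for its wild-type CTCF 1.51% did. The Hoxd10 promoter was at 4.19 in distal RAD21, with 1.11% lower among the 2601 of 2689 like sites that had a peak there, and it had no SMC1 peak, where 92.3% of like sites had one. For the Hoxd12 and Hoxd8 sites 38.6% and 51.7% lay lower in distal RAD21. The Hoxd12 site had no SMC1 peak either, where 89.8% of like sites had one, and the Hoxd8 site was at 6.73 in SMC1, with 14.5% lower. The distal list differs from the whole-limb one in tissue part and strain, whose parts in this were not tested.

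**Figure D5:**
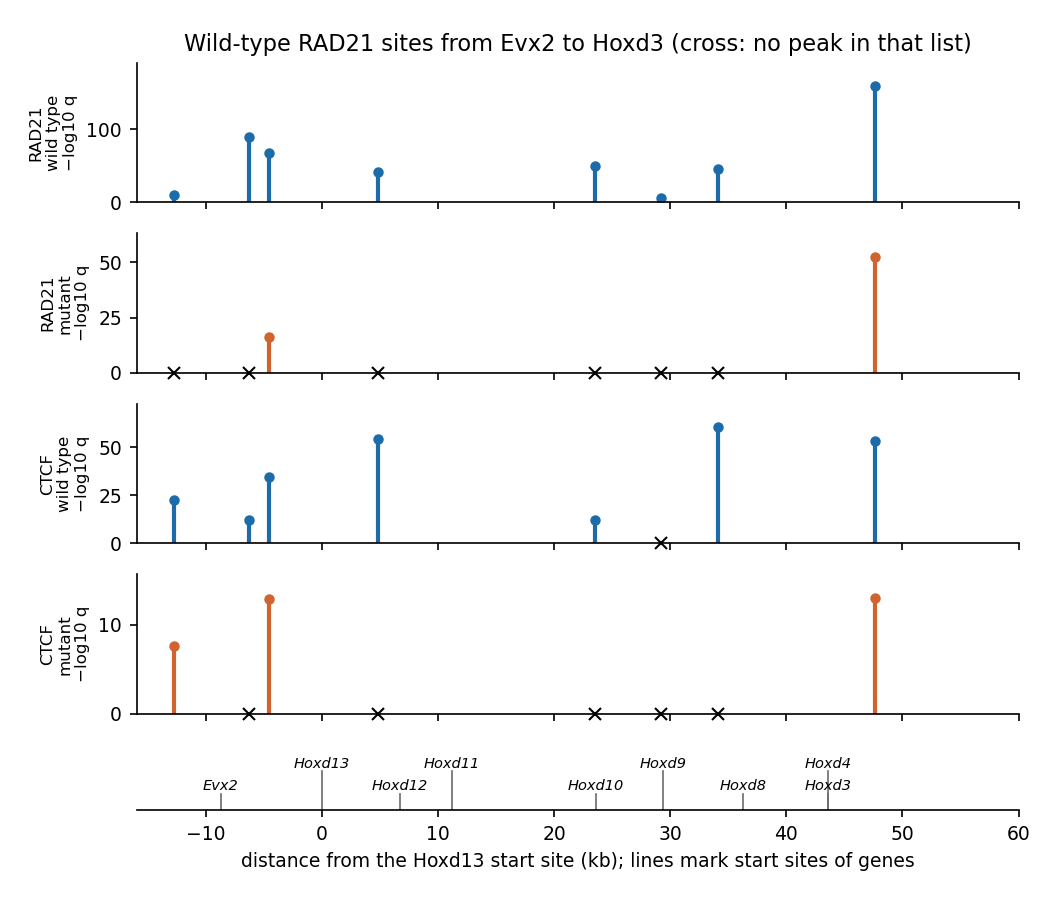
Peaks at the 8 wild-type RAD21 sites of HoxD by distance from the Hoxd13 start site (horizontal axis, kb), as −log10 q (vertical axes, each list on its own scale) in RAD21 and CTCF of wild type and mutant; a cross marks a site with no peak in that list. The 4 sites from 4.81 to 34.1 kb have no mutant RAD21 or CTCF peak, and the sites 4.59 kb before and 47.6 kb after the start have both.

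Genes were grouped by 12 lists, written with earlier results of these data known, and a gene was counted where a peak summit lay within 10 kb of one of its start sites. Of 21827 protein-coding genes 8828 had a wild-type peak, with a median strongest −log10 q of 17.8, and 4531 of them a kept one, 51.3%. At HoxD 11 listed genes had a peak and 5 a kept one, 45.5% (21.3 to 72.0%). This share turned with the distance: it was 1 of 7 genes within 2.5 kb, against 38.1% of all genes, and 13 of 14 within 50 kb, against 73.0%. The locus list held 10 different peaks, of which 3 were kept where strength gave 6.37. Several of the missing ones lie between Hoxd13 and Hoxd8, which the genotype label reads as deleted. The difference therefore carries no information on binding there. Hoxd8, Hoxd9, Hoxd10, Hoxd11, Hoxd12 and, further away, Nfe2l2 (2.09) had missing peaks alone. In the HoxA, HoxB and HoxC clusters 18 of 19 genes had a kept peak, and 11 of 14 different peaks were kept where strength gave 11.4; a site shared by Hoxa3, Hoxa7 and Hoxa9 stood at 145 in wild type and 63.9 in the mutant, and the gene with a missing peak alone was Hoxa4 (26.3).

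Over all genes 4248 of 9791 different peaks were kept and 4271 given by strength, and the other lists were set beside that. Limb patterning genes kept 23 of 44 peaks (23.1 given) and 20 of 29 genes had a kept one. Dlx5, a homeobox factor of the limb ectoderm and skeleton, stood at 153 in wild type and 57.5 in the mutant, Tbx2 at 104 and 41.9, Wnt5a at 90.6 and 30.4, and Fgfr2, a receptor of limb FGF signals, at 84.9 and 27.2. Lhx9 (18.8), Sall1 (10.2), Bmp4 (9.50) and Hhip (9.47), an antagonist of hedgehog ligands, were among the 9 genes with missing peaks alone. Cartilage genes kept 16 of 22 peaks (13.3 given) and had a kept peak in 12 of 12, with a median strongest −log10 q of 77.2; Hapln1, a link protein of cartilage matrix, stood at 162 and 64.7, Gdf5, a joint growth factor, at 127 and 47.2, Sox6 at 115 and 32.2 and Sox9, the master factor of cartilage, at 103 and 37.4.

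The median strongest −log10 q was 13.5 for muscle and 12.4 for endothelium, and 33.8 for blood and 25.0 for surface ectoderm. Muscle kept 2 of 5 peaks (1.37 given), with Myh3 at 22.5 and 4.60, while Mef2c (6.89) and Lbx1 (6.42) had missing peaks alone. Endothelium kept 5 of 10 (3.04 given), among them Sox18 at 101 and 27.6 and Erg at 73.0 and 18.3, and blood 4 of 8 (4.13 given), with Runx1 at 106 and 33.7 and Spi1 at 77.6 and 19.2. Surface ectoderm kept 1 of 3 (1.50 given), at Tfap2a (47.4 and 7.74). Housekeeping genes kept 7 of 17 (6.54 given), with Rpl13a at 61.9 and 27.4. Genes of cohesin and CTCF kept 7 of 16 (6.42 given): the cohesin regulators Pds5b and Pds5a stood at 97.8 and 65.9 in wild type and 37.7 and 28.6 in the mutant, the subunit Stag1 at 47.5 and 14.6, whereas the promoter peaks of Stag2 (25.7) and Sgo1 (11.2) and the peak near the loader Nipbl (5.18) were missing. Imprinted genes kept 12 of 22 (11.7 given), with Cdkn1c at 149 and 56.4 and Grb10 at 133 and 47.6, and protocadherin clusters 5 of 11 (4.93 given), with Pcdhac1 at 104 and 31.6. No member of any list had an extra peak within 10 kb, where 127 of all protein-coding genes had one.

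By chromosome the kept share ran from 42.2% on chromosome 4 to 54.0% on chromosome 11 among autosomes, each near the share its strengths gave. Chromosome 2 as a whole kept 48.6% of 2451 peaks, where strength gave 48.0%. On chromosome X 304 of 1123 were kept, 27.1% (24.6 to 29.7%), where strength gave 30.7% and distal RAD21 covered 31.2%. On chromosome Y 19 of 119 were kept. Of the 52 mutant peaks on Y 32 were extra, and 31 of those lay on tandem repeats. The sex of the pooled embryos is not given in the sources used here, and its part was not tested.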

How the data were processed

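The sources are peak lists of chromatin immunoprecipitation libraries, 1 list per library, from 50-base single-end reads. Cutadapt, Bowtie2, MACS2 and build mm10 are named in the submitters' processing notes, without version or order. Each list, as deposited by the authors, gives per peak a score, a fold enrichment (ratio), a −log10 p and a −log10 q, made by the peak caller before deposit; only the −log10 q and, in an alternative, the fold were used. Read depth is unknown.

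Rows of 1 region were merged, and rows outside chromosomes 1 to 19, X and Y left out. Overlap of 1 bp counted as shared. Genes came from GENCODE M21 and tRNA genes and sequences from RefSeq, both GRCm38, within whose chromosome lengths all peaks lay. Groups came from the labels. Intervals are 95% Wilson intervals for counting error. The steps ran in Python 3.11.15 with numpy 2.4.6, pandas 2.3.3, scipy 1.17.1, statsmodels 0.14.6 and matplotlib 3.10.9, and were tested on simulated data. The CTCF matrix left out chromosomes 2 and 18.

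Named sites were all HoxD peaks, the 10 strongest missing and extra peaks and the 5 strongest of each kind stated, and up to 4 strongest, and 4 with missing peaks alone, per gene list. The kinds of site, members and lists were chosen with earlier results of these data known; tandem repeats, tRNA genes and the alternatives on them were chosen after values were seen. The histone mark and the CTCF lists of other alleles were not analysed here. A few sites, genes and sequences are not reported here.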

Additional observations from a re-analysis of the deposited data

How the results depend on the processing

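No paired analysis was possible because each side is 1 library and no test was made. Of 123 values of 33 results under other settings, 62 moved by less than their interval or stated limit and 61 by more. Requiring 50% of the peak to be covered gave kept shares of 43.6% for all peaks, 63.0% with CTCF and 5.09% without. A floor of 10 on −log10 q, set on each list, gave 51.8%, 54.5% and 10.3%, with 2.26% extra, of which 81.3% were without CTCF. Cutting the wild-type list to the strongest 15927 peaks, the length of the mutant list, gave 86.8%, 87.5% and 67.0% kept and 12.9% extra. On autosomes alone 46.0% were kept, and without tandem repeats 46.4%, with 2.02% extra. With summits within 200 bp 4.75% were extra, of which 79.2% lacked CTCF and 41.3% lay on tandem repeats, and against all wild-type cohesin lists 3.51% were extra. Counting CTCF of any of 3 wild-type lists gave 58.2% kept with and 3.48% without, and CTCF within 1 kb gave 63.4% with. Without tRNA genes 5.77% of peaks without CTCF were kept, and strength read as fold enrichment gave 7.91% for them. An 80% match put 36.6% of extra peaks on tandem repeats. A motif within 100 bp was at 87.1% of kept and 43.0% of missing peaks. Peaks within 2.5 and 50 kb of a start site gave 38.1% and 73.0% of genes with a kept peak. The unknown read depth and the single library a side limit every share; the cause of these shifts was not tested.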

Other observations

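On the repeat unit AC the CTCF list of the del(8-13)rXII forelimbs had 218 peaks and the wild-type whole-limb CTCF list 9, and the mutant and wild-type whole-limb RAD21 lists had 6 and 56. On ACAGC 23 of 49 wild-type RAD21 peaks were kept, where strength gave 10.4, and on AGG 18 of 150, where strength gave 25.1. These units were singled out after their values were seen.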
